A study of Mus musculus with 6 samples.

Results

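The 10 genes described here encode Wnt ligands and secreted proteins that modify Wnt signaling: the ligand Wnt16, the agonist Rspo1, the Wnt-binding antagonists Wif1, Sfrp1, Sfrp2, Sfrp4 and Frzb, the antagonists Sost and Dkk2, which bind the co-receptors Lrp5 and Lrp6, and the Dickkopf family member Dkk3, whose part in Wnt signaling is unsettled. They were taken by symbol from the 31055 features of the count matrix, and all 10 were found once. Single cells of the aortic root and ascending aorta were sequenced from 6 female mice at 16 weeks of age on a 129 background. The labels list 4 control mice and 2 mice with Loeys-Dietz syndrome (LDS), a connective tissue disorder with aortic root aneurysm. Of the controls, 2 were Tgfbr1+/+ and 2 were Tgfbr1+/+; Wnt2CRE; EGFP-L10a, in which a Cre under the Wnt2 promoter turns on an EGFP tracer in cells of the cardiac neural crest (CNC), and both LDS mice were Tgfbr1M318R/+, with a missense change in 1 allele of a TGF-beta receptor. Live, nucleated cells had been sorted from the digested tissue without a cell type marker.

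Each barcode ends in a library number (1 to 6) that no source used here ties to a mouse. For that reason no contrast of LDS with control mice was made and no p-values are given. Values are listed per library, or as a median with its range. The GFP tracer had 263, 201, 157 and 258 unique molecular identifiers (UMIs, the count of captured transcripts) in libraries 1 to 4 and 8 and 6 in libraries 5 and 6, which are 4 libraries above 100 where the labels list 2 traced mice. Of 30716 barcodes, 24972 cells passed the quality filter, with 18218282 to 38105145 UMIs per library and a median per cell of 5572 to 9838, and 76 barcode sequences occurred in more than 1 library. Clustering gave 13480 fibroblast-like cells, 10375 cells like vascular smooth muscle (VSMC-like), 568 endothelial-like cells, 444 leukocyte-like cells and 105 cells without a name. The 7 smooth muscle markers summed to 60550 to 67257 CPM (UMIs per 1000000 UMIs) in VSMC-like cells and to 1272 to 5606 CPM in fibroblast-like cells. The 7 fibroblast markers summed to 24935 to 31400 CPM in fibroblast-like and 1415 to 3136 CPM in VSMC-like cells, so each class carried some RNA of the other.

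Wnt proteins are secreted lipid-modified ligands that bind Frizzled receptors together with Lrp5 or Lrp6 and, in the canonical branch, stabilize beta-catenin, which acts in the nucleus with Tcf and Lef proteins. Wif1 and the secreted Frizzled-related proteins (Sfrp1, Sfrp2, Sfrp4 and Frzb) bind Wnt ligands outside the cell, while sclerostin (Sost) and Dkk2 occupy the co-receptors. R-spondins such as Rspo1 bind Lgr receptors and keep the ubiquitin ligases Znrf3 and Rnf43 from removing Frizzled from the cell surface. Several components are also targets of the pathway, among them Axin2, Lef1, Nkd1, Nkd2, Znrf3 and Rnf43, and canonical Wnt signaling shapes the outflow tract and the heart valves.

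The promoter sequences of Sost, Wnt16 and Wif1 are shown because Wnt16 shared cells with Sost in VSMC-like cells and with Wif1 in both classes, as described below. Each run is the 250 bases before the annotated start, 5′ to 3′ on the strand of the gene (RefSeq, GRCm38.p6), with capitals marking matches to CCAAT or TATAAA on either strand. The windows are chr11:101967016-101967265 on the minus strand for Sost, chr6:22287977-22288226 on the plus strand for Wnt16 and chr10:121033754-121034003 on the plus strand for Wif1, whose RefSeq start is 44 bases downstream of the GENCODE start given with the gene.
Sost: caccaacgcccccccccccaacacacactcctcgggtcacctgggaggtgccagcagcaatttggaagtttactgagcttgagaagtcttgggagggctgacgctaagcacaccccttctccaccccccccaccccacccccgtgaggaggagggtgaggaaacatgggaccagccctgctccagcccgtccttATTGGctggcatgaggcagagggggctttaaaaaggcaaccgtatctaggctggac
Wnt16: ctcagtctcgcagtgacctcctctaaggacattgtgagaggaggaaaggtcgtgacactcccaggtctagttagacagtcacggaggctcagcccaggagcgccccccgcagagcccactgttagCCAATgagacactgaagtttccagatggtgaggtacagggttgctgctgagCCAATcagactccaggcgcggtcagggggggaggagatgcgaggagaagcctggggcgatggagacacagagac
Wif1: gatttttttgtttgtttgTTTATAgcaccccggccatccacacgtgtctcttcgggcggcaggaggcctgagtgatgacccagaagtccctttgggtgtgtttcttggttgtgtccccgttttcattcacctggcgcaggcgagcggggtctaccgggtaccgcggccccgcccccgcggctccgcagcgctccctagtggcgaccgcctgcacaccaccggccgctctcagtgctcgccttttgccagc
Sost held 1 match to CCAAT, 56 bases before the start on the opposite strand, and Wnt16 held 2, at 125 and 74 bases. CCAAT occurs in 33.8% of the 32851 promoter windows of this length. The Wif1 window held no CCAAT but 1 TATAAA on the opposite strand, 232 bases before the start, a motif found in 12.4% of windows. Windows were available for 7 members: Sost, Wif1, Sfrp2, Frzb, Dkk2, Wnt16 and Rspo1. The RefSeq start of Frzb is 229 bases downstream of its GENCODE start, so most of the Frzb window lies inside the GENCODE gene. None of the 7 held the Tcf/Lef letters CAAAG after a pair of bases that are each A or T (14.8% of all windows), the GATA letters GATAA after A or T (16.6%) or a CArG box (1.47%), all searched on both strands. CpG dinucleotides numbered 21 in the Wif1 window and 22 in that of Rspo1, against 6 for Sost, 9 for Wnt16 and a median of 6 over all windows. Counts from the 3′ ends of transcripts do not show which start site was used.

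Most of the antagonists were higher per UMI in fibroblast-like cells, while Sost and Wnt16 were higher in VSMC-like cells. Of the 8 members that reached a median of 10 CPM in either class, 5 (Wif1, Sfrp1, Sfrp4, Frzb and Dkk3) were at least 2-fold higher in fibroblast-like cells by the median and higher in 6 of 6 libraries, a rule met by 13.5% of the 8706 genes at that level. Sost and Wnt16, 2 of the 8, met the rule in the VSMC-like direction, which 9.33% of genes did. Sfrp2 reached the level without meeting the rule, and Rspo1 and Dkk2 were below it in both classes. The classes were defined by marker genes in the same cells, so these counts describe the classes and are no test.

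**Figure D1:**
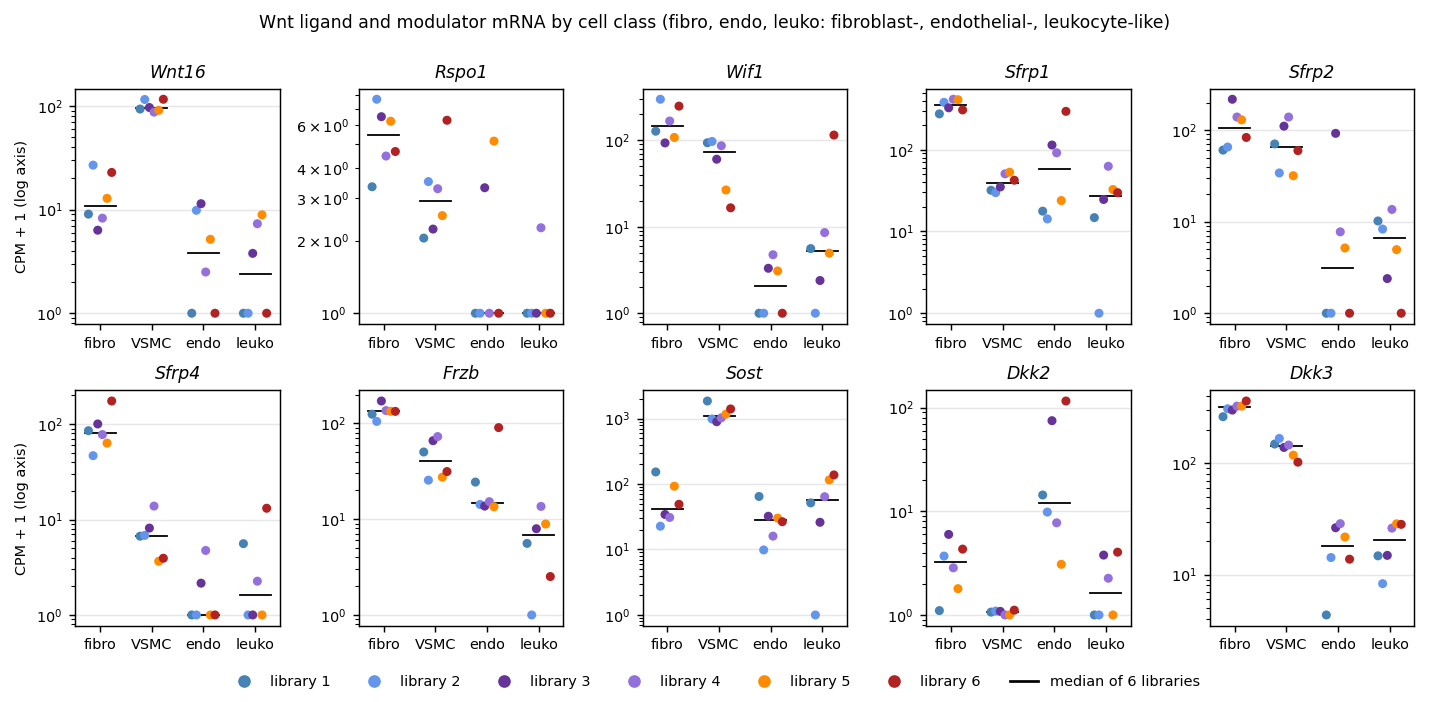
Level of each of the 10 genes by cell class, as CPM + 1 on a log axis, with 1 point per library and a black line at the median of the 6 libraries. Sost and Wnt16 lie higher in VSMC-like cells and Wif1, Sfrp1, Sfrp4, Frzb and Dkk3 higher in fibroblast-like cells in all 6 libraries, and Dkk2 has its highest median (11.1 CPM) in endothelial-like cells.

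To look inside the classes, fibroblast-like and VSMC-like cells were clustered again without the Wnt genes, which gave 12 and 10 subtypes of at least 100 cells. Subtypes are called here by 1 of their 3 leading genes. In fibroblast-like cells the ones that matter most below are Coch (Cd74/Coch/H2-Aa, 798 cells), Cilp2 (Cilp2/Cyp26a1/Spp1, 783 cells), Tfap2b (Tfap2b/Mia/F13a1, 331 cells), Dpp4 (Dpp4/Dact2/Basp1, 1650 cells), Igfbp3 (Igfbp3/Ptn/Gucy1a1, 894 cells) and Mmp3 (Mmp3/C2/Cpz, 551 cells). Among VSMC-like cells they are Rgs5 (Rgs5/Prrx2/Tshz2, 624 cells), Olfr558 (Olfr558/Nrip2/Kcna5, 571 cells) and Igfbp2 (Igfbp2/Des/Tnnt2, 1083 cells). The Coch subtype carried antigen-presentation genes (Cd74 at a median of 1409 CPM) together with Dcn at 15205 CPM, while Ptprc, the pan-leukocyte gene, had a median of 0. The Cilp2 subtype was led by genes of tendon and cartilage (Cilp2, Thbs4, Chad, Scx). The Olfr558 subtype had high Enpep (187 CPM) and Notch3 (117 CPM) and low Tes (2.50 CPM), the reverse of the Rgs5 subtype, with 6.16, 7.25 and 159 CPM. In the Mylk4/Myh11/2210407C18Rik subtype of fibroblast-like cells (421 cells) and the Ahsg/Hsd11b1/Adamtsl2 subtype of VSMC-like cells (261 cells), 60.1% and 62.5% of the cells were marked as doublets, and these values are not read as levels of a cell type.

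**Figure D2:**
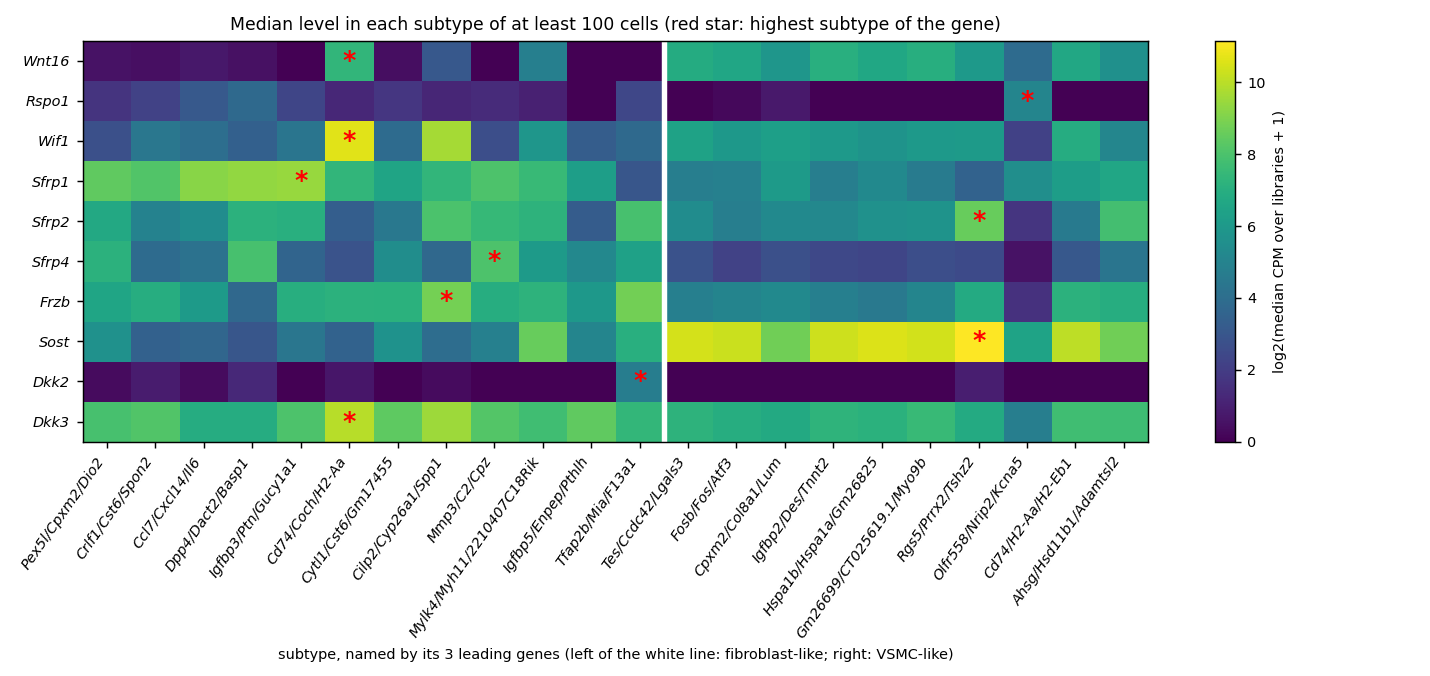
Median level over libraries of each gene in each of the 22 subtypes, as log2(CPM + 1) by color, with a red star at the highest subtype of the gene. The Coch subtype holds 3 stars (Wif1, Dkk3 and Wnt16), the Rgs5 subtype 2 (Sost and Sfrp2), and the Olfr558 subtype is dark for most genes but holds the star of Rspo1.

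Wnt16 (chr6:22288227-22298522, plus strand, mm10), a ligand known from bone, was measured in VSMC-like cells of libraries 1 to 6 at 92.3, 114, 95.5, 86.2, 89.7 and 115 CPM. In fibroblast-like cells it was at 8.04, 25.8, 5.32, 7.27, 11.8 and 21.8 CPM. The groups do not overlap, and the log2 ratio of fibroblast-like over VSMC-like cells was -3.22 by the median (range -4.16 to -2.14). With every cell thinned to 3000 UMIs, 22.1% of VSMC-like cells (95% interval 21.3 to 22.9%) had a Wnt16 UMI, against 2.06% of fibroblast-like cells and 0.789% (0.163 to 2.29%) of leukocyte-like cells. Leukocyte-like cells are given beside each share as a background that free RNA and doublets can both add to, and 16.0% of them were marked as doublets. Among VSMC-like subtypes Igfbp2 had the highest median (130 CPM, range 88.7 to 153), close to several others, and Olfr558 the lowest (13.7 CPM, range 5.61 to 25.9), with no overlap between them.

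In 4 of 6 libraries most of the small fibroblast-like signal of Wnt16 lay in 1 subtype. In the Coch subtype Wnt16 was at 222, 185, 44.7, 80.8, 141 and 185 CPM in libraries 1 to 6, from 35 of 79, 405 of 440, 62 of 111, 132 of 165, 50 of 149 and 176 of 184 UMIs of the gene in all fibroblast-like cells. Library 2 holds the largest of these counts, and in libraries 1 and 5 most UMIs lay in other subtypes. The other fibroblast-like cells had a median of 2.44 CPM, and the log2 ratio was 5.61, positive in 6 of 6 libraries. By the median the Coch subtype (163 CPM) led all 22 subtypes for Wnt16, but it was above the Igfbp2 subtype of VSMC-like cells in 4 of 6 libraries and their ranges overlap. Without cells marked as doublets the Coch median was 165 CPM. At the lower clustering resolution Coch cells were joined with Cilp2 cells, and the leading subtype for Wnt16 was then VSMC-like, with a log2 ratio of 0.40 to the other VSMC-like cells.

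Rspo1 (chr4:124986430-125009099, plus strand), the R-spondin, was sparse in both classes, with 2.34 to 6.70 CPM in fibroblast-like and 1.05 to 5.30 CPM in VSMC-like cells. The VSMC-like signal sat in the Olfr558 subtype, at 42.2, 37.3, 14.4, 24.2, 28.0 and 52.1 CPM in libraries 1 to 6, on 144 UMIs. The other VSMC-like cells had a median of 0.318 CPM, so the log2 ratio was 6.56, positive in 6 of 6 libraries. At 3000 UMIs per cell, 9.34% of Olfr558 cells (7.05 to 12.1%) had a Rspo1 UMI, against 0.263% (0.00666 to 1.46%) of leukocyte-like cells. The next subtype was Dpp4 among fibroblast-like cells, at 13.1 CPM (range 1.29 to 18.9), below Olfr558 in 5 of 6 libraries. Rspo1 overlaps Gm12930 on the opposite strand.

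Lgr6, an R-spondin receptor, was higher in VSMC-like than in fibroblast-like cells (72.4 against 3.66 CPM, log2 ratio -4.32, the same sign in 6 of 6 libraries). Within VSMC-like cells Lgr6 was lower in the Olfr558 subtype (47.5 CPM) than in the other cells in 6 of 6 libraries, with a log2 ratio of -0.67. Lgr4, a second receptor of the family, was at 25.1 CPM in fibroblast-like and 29.9 CPM in VSMC-like cells.

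Wif1 (chr10:121033960-121100650, plus strand) was at 126, 297, 92.2, 166, 107 and 247 CPM in fibroblast-like cells of libraries 1 to 6. In VSMC-like cells it was at 92.6, 95.9, 59.4, 85.5, 25.6 and 15.6 CPM. Fibroblast-like cells were higher in every library, by a median log2 ratio of 1.29, but the ratio ran from 0.45 in library 1 to 3.98 in library 6 and fell to 0.96, under the 2-fold limit, when library 2, 5 or 6 was left out. The lowest VSMC-like levels of Wif1 were in libraries 5 and 6, the same libraries that held fewer than 10 GFP UMIs, and the part of genotype or tracer was not tested. In leukocyte-like cells Wif1 had 75 UMIs (114 CPM) in library 6 and at most 6 UMIs in any other library.

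Wif1 was highest in 2 fibroblast-like subtypes. The Coch subtype held it at 2627, 1827, 273, 1515, 1066 and 1745 CPM in libraries 1 to 6, and the Cilp2 subtype at 1396, 898, 740, 517, 549 and 880 CPM. Only in library 3 was the Cilp2 subtype the higher of them. The Coch subtype held 15.6, 65.2, 14.3, 50.6, 19.9 and 74.9% of the Wif1 UMIs of both classes in libraries 1 to 6, and the Cilp2 subtype a median of 24.6% (range 14.2 to 48.5%), while they are 5.92% and 5.81% of the fibroblast-like cells. A Wif1 UMI was found in 59.2% of Coch cells (55.5 to 62.7%) at 3000 UMIs and in 1.05% of leukocyte-like cells (0.288 to 2.67%). Among VSMC-like subtypes Wif1 was lowest in Olfr558 (3.51 CPM, range 1.27 to 22.7).

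The share of fibroblast-like cells in the Coch subtype was 1.22% in library 1 and 2.69% in library 5, and 5.05 to 10.6% in the other libraries. The Coch level of Wif1 in library 1 thus rested on 18 cells with 414 UMIs. Library 3 had the lowest level of Wif1 and of Wnt16 in the Coch subtype, but not of Dkk3 (1004 CPM).

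Sfrp1 (chr8:23411502-23449632, plus strand) was found in many fibroblast-like cells, at 273, 379, 325, 413, 408 and 306 CPM in libraries 1 to 6. VSMC-like cells had 30.9, 28.9, 34.1, 49.7, 52.1 and 41.4 CPM. These groups are far apart, with a median log2 ratio of 3.10 and a narrow range of 2.88 to 3.71. A UMI was found in 41.6% of fibroblast-like cells (40.8 to 42.5%) against 10.4% of VSMC-like and 4.74% of leukocyte-like cells (2.83 to 7.38%). Sfrp1 was highest in the Igfbp3 (701 CPM, range 554 to 860) and Dpp4 subtypes (659 CPM, range 475 to 817), whose order differed between libraries, and lowest in the Tfap2b subtype (7.03 CPM, range 0 to 52.6).

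Sfrp2 (chr3:83766321-83774316, plus strand) did not separate the classes. Fibroblast-like cells had 59.5, 64.4, 216, 138, 128 and 82.2 CPM and VSMC-like cells 69.7, 33.1, 110, 138, 30.8 and 58.7 CPM, which overlap, and the log2 ratio of 0.72 ranged from -0.23 to 2.06. Its highest subtype was VSMC-like: Rgs5 had 368, 166, 485, 823, 193 and 389 CPM against a median of 38.1 CPM in the other VSMC-like cells, a log2 ratio of 2.98 in the same direction in 6 of 6 libraries. The Cilp2 and Tfap2b subtypes of fibroblast-like cells followed at 256 and 240 CPM with wide ranges (68.2 to 873 and 40.2 to 464). Frzb was higher in Rgs5 cells too, at 112 CPM (log2 ratio 1.41, 6 of 6 libraries), so 2 of the 7 members tested were at least 2-fold higher there by the median and higher in every library, against 1.11% of 8044 genes. Sfrp2 overlaps Gm26771 on the opposite strand, whose own counts had the pattern over classes and subtypes most like that of Sfrp2.

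Sfrp4 (chr13:19623104-19632994, plus strand) was at 84.5, 45.7, 99.5, 76.8, 62.3 and 174 CPM in fibroblast-like cells and at 5.70, 5.82, 7.14, 12.8, 2.66 and 2.93 CPM in VSMC-like cells. The median log2 ratio was 3.84 (2.58 to 5.86). Mmp3 (262 CPM, range 49.0 to 428) and Dpp4 (239 CPM, range 60.7 to 459) had the highest medians, and Mmp3 was above Dpp4 in 2 of 6 libraries, so Sfrp4 has no single leading subtype. Mmp3 was also the lowest of the 12 fibroblast-like subtypes for Wif1, at 5.51 CPM.

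Frzb (chr2:80411970-80447625, minus strand) was at 124, 104, 170, 135, 133 and 133 CPM in fibroblast-like cells of libraries 1 to 6, against 49.3, 24.6, 65.0, 71.9, 26.5 and 30.4 CPM in VSMC-like cells, and its log2 ratio was 1.74 (0.91 to 2.33). Its highest subtypes were Cilp2, at 414, 390, 644, 492, 522 and 392 CPM, and Tfap2b, with a median of 443 CPM (range 76.3 to 692). The Dpp4 subtype, high in Sfrp1 and Sfrp4, was low in Frzb (12.7 CPM, range 6.07 to 14.5), and Olfr558 was the lowest of all 22 (1.99 CPM). Frzb and Sfrp1 thus had their highest levels in different fibroblast-like subtypes.

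Sost (chr11:101962458-101967015, minus strand), which encodes sclerostin, a protein known from osteocytes, had the lowest ratio of fibroblast-like over VSMC-like cells of the 10 members. VSMC-like cells held 1851, 983, 893, 1024, 1167 and 1400 CPM in libraries 1 to 6 and fibroblast-like cells 152, 21.7, 33.2, 29.9, 91.6 and 48.0 CPM. The median log2 ratio was -4.80 (-5.50 to -3.61). Leukocyte-like cells had up to 137 CPM, so the fibroblast-like level overlaps that of cells used as background, and library 1 was highest in both classes. At 3000 UMIs, 77.9% of VSMC-like cells (77.1 to 78.7%) had a Sost UMI, 7.15% of fibroblast-like cells and 3.95% of leukocyte-like cells (2.23 to 6.43%).

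**Figure D3:**
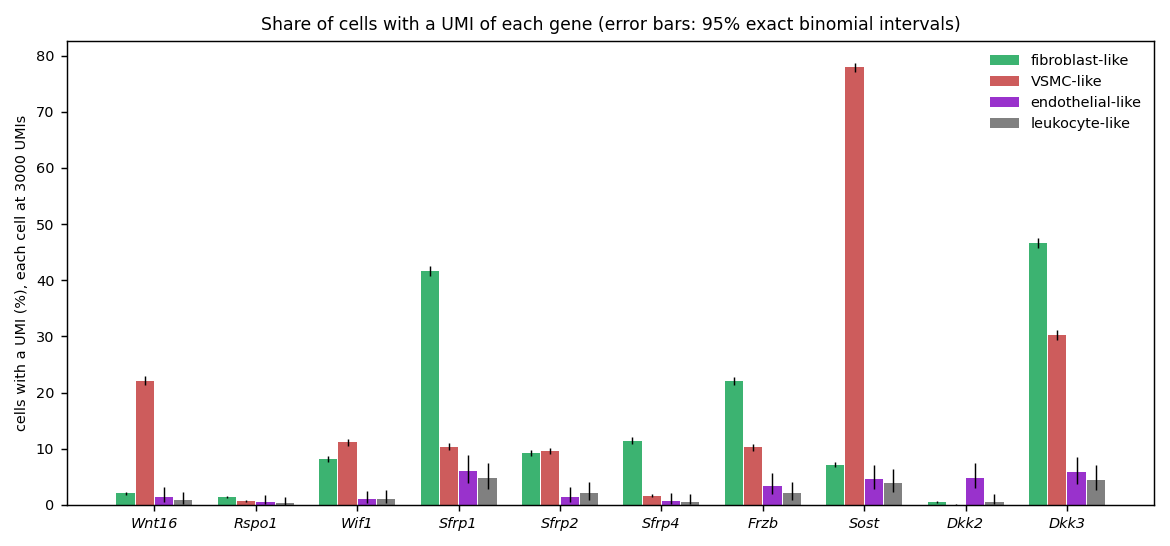
Share of cells with a UMI of each gene after every cell was thinned to 3000 UMIs, by cell class, with 95% exact binomial intervals that cover counting error only. Sost was found in 77.9% of VSMC-like cells and in 3.95% of leukocyte-like cells, and Wif1 was found in 11.1% of VSMC-like and 8.13% of fibroblast-like cells, the reverse of the order of its CPM.

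Within VSMC-like cells Sost spanned more than an order of magnitude. The Rgs5 subtype was highest at 2740, 1228, 1397, 2169, 2395 and 3090 CPM, with a log2 ratio of 0.91 to the other VSMC-like cells, positive in 6 of 6 libraries, and it was above the next subtype in 5 of 6. In the Olfr558 subtype Sost was at 182, 33.1, 44.6, 105, 96.3 and 81.3 CPM, a log2 ratio of -3.95, negative in 6 of 6 libraries. Olfr558 cells with a Sost UMI made up 12.4% (9.77 to 15.4%) against 92.0% of Rgs5 cells (89.5 to 94.1%). The Cpxm2/Col8a1/Lum subtype, with fibroblast genes among its leading genes and 10.3% marked doublets, lay between them at 422 CPM (range 342 to 798). Outside the VSMC-like class, and apart from the doublet-rich subtype, Sost was highest in Tfap2b cells (132 CPM, range 34.0 to 207), where it was higher than in the other fibroblast-like cells in 6 of 6 libraries (log2 ratio 1.32).

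**Figure D4:**
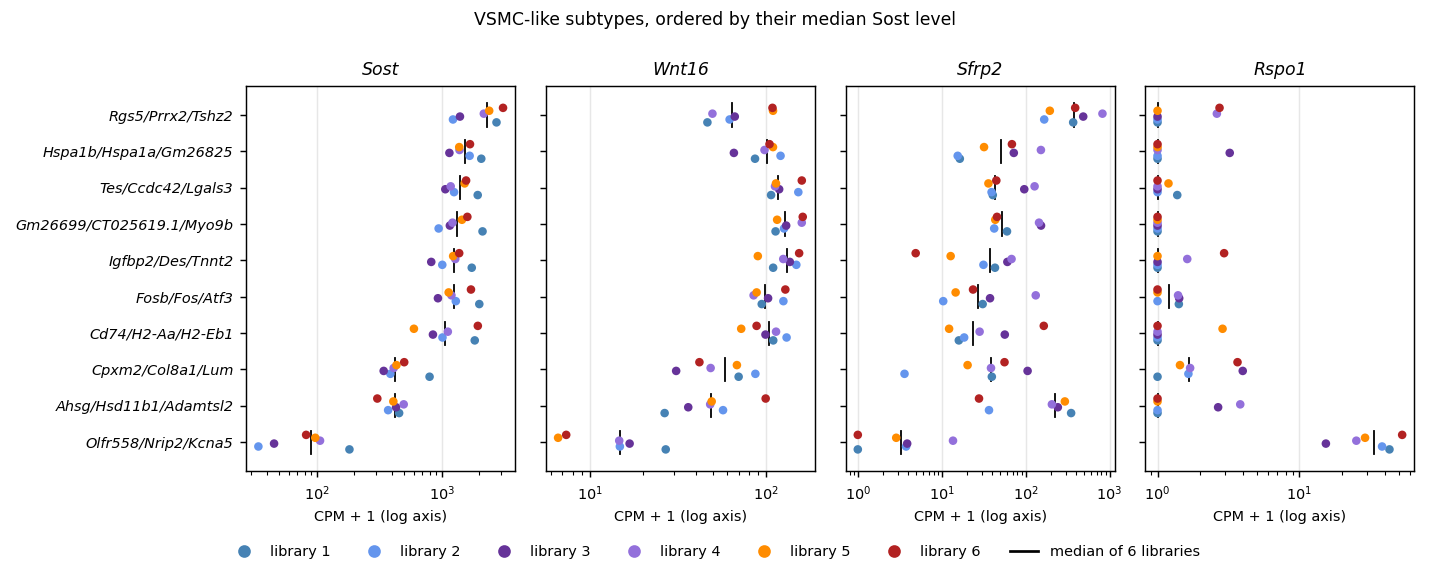
Levels of Sost, Wnt16, Sfrp2 and Rspo1 in the 10 VSMC-like subtypes, as CPM + 1 on a log axis, with 1 point per library and a black line at the median. Olfr558 is the lowest subtype for Sost, Wnt16 and Sfrp2 by the median and the highest for Rspo1 (32.7 CPM), and Rgs5 is the highest for Sost (2282 CPM) and Sfrp2 (378 CPM).

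Olfr558 VSMC-like cells held little of nearly every member. Of the 8 members with at least 10 CPM in Olfr558 cells or in the other VSMC-like cells, 6 (Sost, Wif1, Sfrp2, Frzb, Dkk3 and Wnt16) were at least 2-fold lower in Olfr558 by the median and lower in every library, a rule met by 6.2% of 8049 genes, and 1, Rspo1, met the same rule upward, as did 4.44% of genes. Sfrp1 passed in neither direction, with a log2 ratio of 0.18. A gene that reached 10 CPM on 1 side only, as Rspo1 did in Olfr558 cells, could not pass in the other direction. These counts are therefore no test. The depth of Olfr558 cells (median 7331 UMIs) was close to that of all VSMC-like cells (7204), and no cause was tested.

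Dkk2 (chr3:132085292-132180304, plus strand), an antagonist that acts through Lrp5 and Lrp6 with Kremen proteins, was near the limit of detection, with 231 UMIs in all fibroblast-like cells and 4 in all VSMC-like cells. Among the subtypes Dkk2 was highest by the median in Tfap2b, with 5.07, 26.1, 20.4, 24.3, 63.2 and 51.8 CPM in libraries 1 to 6. These levels rested on 1, 13, 14, 10, 3 and 23 UMIs. All fibroblast-like cells held 1, 46, 104, 42, 10 and 28 UMIs of the gene. In libraries 2 to 5 most of them lay outside the Tfap2b subtype. Tfap2b (median 25.2 CPM) was above the subtype with the next highest median, Dpp4 (1.42 CPM), in 6 of 6 libraries. At 3000 UMIs, 6.09% of Tfap2b cells (3.71 to 9.35%) had a Dkk2 UMI, against 0.526% of leukocyte-like cells (0.0638 to 1.89%). Endothelial-like cells had 13.4, 8.84, 73.9, 6.75, 2.08 and 115 CPM, on 4, 2, 64, 9, 1 and 9 UMIs, with a UMI in 4.83% of cells (2.98 to 7.36%). Kremen1, a Dickkopf receptor, was at 18.9 CPM in fibroblast-like and 10.6 CPM in VSMC-like cells.

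Dkk3 (chr7:112116017-112159057, minus strand) was present in both classes, at 262, 309, 300, 326, 326 and 363 CPM in fibroblast-like and 148, 167, 138, 145, 118 and 102 CPM in VSMC-like cells. Its log2 ratio of 1.14 had the smallest distance from 0 of the 7 members that met the rule, but the classes did not overlap. The Coch subtype led at 1129, 812, 1004, 955, 1164 and 855 CPM and was above the Cilp2 subtype (728 CPM) in 6 of 6 libraries. Olfr558 was lowest, at 25.9, 26.2, 28.8, 27.4, 16.8 and 21.6 CPM, where leukocyte-like cells had a median of 19.6 CPM. A UMI was found in 85.7% of Coch cells (83.0 to 88.1%) and 5.21% of Olfr558 cells (3.51 to 7.39%).

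Members were then counted in the same cells, each thinned to 3000 UMIs. Among fibroblast-like cells with a Wif1 UMI, 15.5% also had Wnt16, against 0.861% of those without, and of the 252 cells with Wnt16, 61.5% had Wif1, against 7.01% of the others. Both held in 6 of 6 libraries. Sfrp4 went the other way: 2.91% of the cells with Wif1 and 12.2% of the cells without it had Sfrp4, in the same direction in 6 of 6 libraries. Frzb accompanied Wif1 (38.5% against 20.5%) and Sfrp2 (36.3% against 20.5%), and was rarer in cells with Sfrp1 (16.7% against 25.8%).

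Among VSMC-like cells, 24.4% of those with a Sost UMI had Wnt16, against 13.9% of those without, in 6 of 6 libraries. Wnt16 was also in 29.8% of the VSMC-like cells with Wif1 and 21.1% of those without, in 6 of 6 libraries. Sfrp2 and Frzb shared cells as well, with Frzb in 22.4% of the cells with Sfrp2 and 8.96% of the others. Sfrp1 went the other way, and was found in 5.12% of the cells with Sfrp2 and 10.9% of those without. In all these pairs cells of 1 library share its free RNA and its doublets, whose part was not tested. The subtypes of a class were pooled, so subtypes high or low in both genes enter these shares, and that part was not separated.

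Other genes of the pathway were set beside the members from lists of 82 genes. Of 18 other Wnt ligands, 3 reached the 10 CPM level, and all 3 were called higher in fibroblast-like cells, as were 13.5% of 8706 genes. They were Wnt5a (120 against 5.95 CPM), Wnt11 (19.6 against 0.574 CPM) and Wnt9a (16.7 against 6.71 CPM). Of 13 other secreted modulators 3 were tested, and 2, Igfbp4 (1764 against 212 CPM) and Cthrc1, were higher in fibroblast-like cells, beside the same 13.5% of genes. Rspo3 did not differ in a common direction (30.9 and 28.9 CPM). Wnt16 was thus the 1 ligand of the 4 at this level that was higher in VSMC-like cells.

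Receptors went both ways between the classes. Of 16 tested receptors and co-receptors, 5 met the rule, where 22.9% of all 8706 genes did in either direction: Fzd4, Lrp4 and Ptk7 were higher in fibroblast-like cells and Lgr6 and Znrf3 in VSMC-like cells, and the log2 ratios of the 16 ran from -4.32 to 4.14 around a median of 0.04. The highest level in any class was that of Ryk, at 148 CPM in fibroblast-like and 114 CPM in VSMC-like cells, followed by Fzd4, at 109 CPM in endothelial-like, 82.8 CPM in fibroblast-like and 13.0 CPM in VSMC-like cells. The co-receptors that Sost and Dkk2 bind were present in both classes, Lrp5 at 24.8 and 21.8 CPM and Lrp6 at 70.0 and 42.9 CPM. Lrp4, a receptor that also binds sclerostin, was at 32.9 CPM in fibroblast-like and 1.78 CPM in VSMC-like cells, a log2 ratio of 3.98. None of 12 transducers met the rule, and beta-catenin mRNA (Ctnnb1) was at 228 and 253 CPM. Wls, which carries Wnt proteins to the cell surface, was at 143 and 157 CPM.

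Feedback and target genes went both ways between the classes: of 6 tested, 4 met the rule (22.9% of all genes), of which Nkd2 and Wisp1 were higher in fibroblast-like and Nkd1 (17.2 against 94.7 CPM) and Znrf3 (9.17 against 16.6 CPM) in VSMC-like cells. Across subtypes, 10 of the 15 listed genes found in the matrix reached 10 CPM. Of the 10, 6 (Axin2, Lef1, Nkd2, Tnfrsf19, Bambi and Rnf43) had their highest median in the Coch subtype. So did 3 of the 10 members and 11.2% of 10143 genes. At least Lef1 and Rnf43 reached 10 CPM only in Coch cells, which fixed their highest subtype, so the count is no test. Axin2 was at 50.8, 40.2, 24.5, 31.2, 39.5 and 58.7 CPM in Coch cells of libraries 1 to 6, on 8 to 88 UMIs. It was at 3.10 to 6.70 CPM in the other fibroblast-like cells. Lef1 was at 12.7, 19.2, 10.8, 17.7, 16.9 and 32.5 CPM against 0.0817 to 0.202 CPM. The Lef1 levels in Coch cells rested on 2, 42, 15, 29, 6 and 31 UMIs. Every library was higher in Coch cells for both genes, with log2 ratios of 3.01 and 6.23. Nkd2, Tnfrsf19 and Rnf43, chosen after their values were seen, had medians of 62.8, 29.6 and 12.6 CPM in Coch cells. Wisp1, another listed target, went the other way. It was at 0, 0.915, 5.77, 0, 0 and 4.19 CPM in Coch cells of libraries 1 to 6. The other fibroblast-like cells had 18.2 to 43.9 CPM of Wisp1.

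The Coch subtype was also the highest for the agonist Rspo3 (247, 240, 57.0, 254, 180 and 384 CPM) and for the ligands Wnt5a (210 CPM) and Wnt11 (78.5 CPM). Wnt5a in the Coch subtype was close to the Pex5l/Cpxm2/Dio2 subtype (190 CPM), and library 3 was lower in Coch cells than in the other fibroblast-like cells (92.3 against 142 CPM). Among the members, 3 of 8 tested (Wif1, Dkk3 and Wnt16) were at least 2-fold higher in Coch cells than in the other fibroblast-like cells by the median and higher in every library, as were 4.56% of 8624 genes, and 4 (Sost, Sfrp1, Sfrp2 and Sfrp4) were lower by the same rule, as were 6.26%. In the Cilp2 subtype 3 of 8 members tested (Wif1, Frzb and Dkk3) were higher by the same rule, against 2.15% of 8404 genes. Another 3 (Sost, Sfrp1 and Sfrp4) were lower there, as in Coch cells, against 4.24% of genes. Wnt16 reached 10 CPM in Coch cells but not in the other fibroblast-like cells, so there it could pass only upward. These counts are no test. Axin2 in Cilp2 cells was at 11.9 CPM and Lef1 at 1.27 CPM, so Wif1 and Dkk3 were high in both subtypes and Lef1 in Coch alone of the pair.

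**Figure D5:**
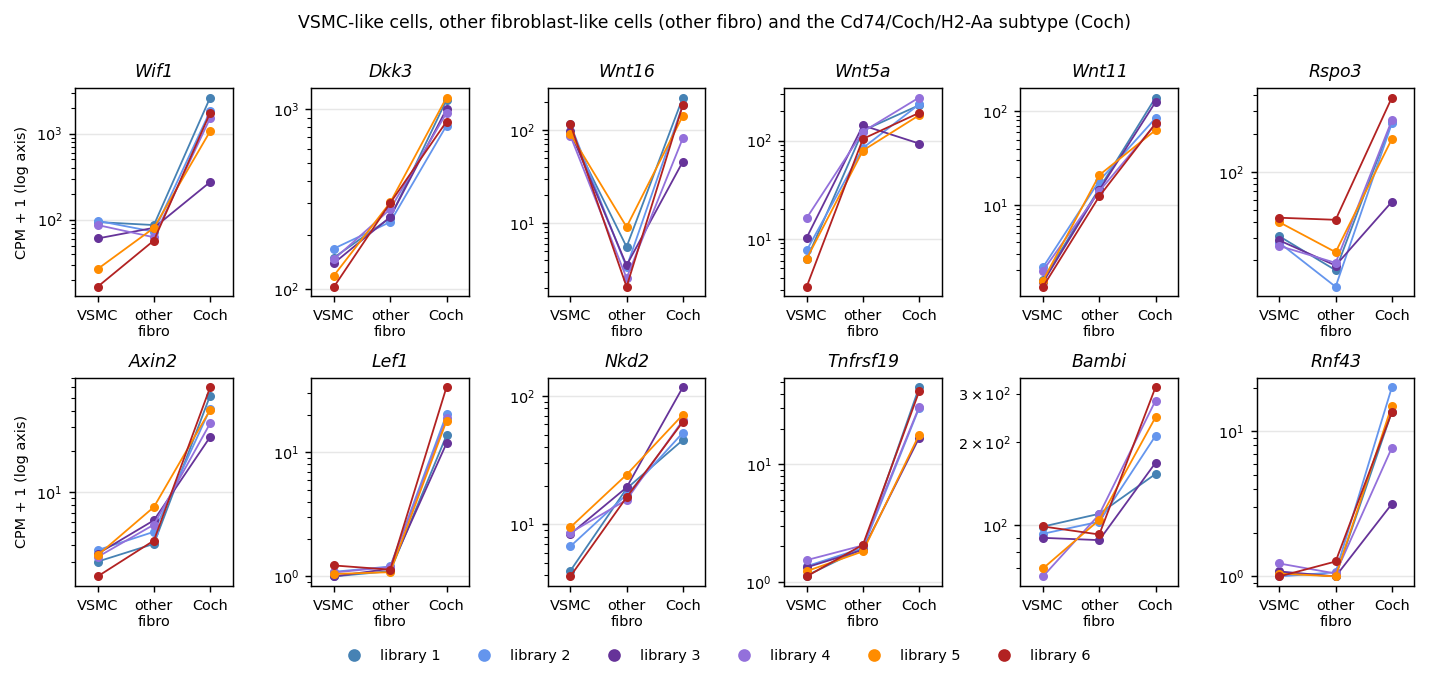
Levels in VSMC-like cells, in fibroblast-like cells outside the Coch subtype and in the Coch subtype, as CPM + 1 on a log axis, with 1 line per library. The 3 members Wif1, Dkk3 and Wnt16, the ligand Wnt11, the agonist Rspo3 and the targets Axin2, Lef1, Nkd2, Tnfrsf19, Bambi and Rnf43 are higher in Coch cells than in the other fibroblast-like cells in all 6 libraries, and Wnt5a in 5 of 6. The target Wisp1, lower in Coch cells, is not shown.

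For each member the genes with the most similar pattern were found by Pearson r of log2(CPM + 1) over 24 points, the 22 subtypes with the endothelial-like and leukocyte-like classes, among 11080 genes. The points share libraries, and r is a description. Sost was most like Thsd4 (r = 0.974), Nav2 (0.961) and Itga8 (0.960). Wif1 was most like Smim3 (0.939), Pdzrn4 and Erbb4, and Dkk3 most like Nkd2 (0.919), a Wnt feedback gene of the lists used here, Lmo4 and Txndc5. Wnt16 was most like Tmem117 (0.928), with Hspb6 also among the closest, and Sfrp1 most like Penk (0.905), Gpr39 and Tcf21.

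The remaining members had looser neighbors. Sfrp4 was most like Tmed3 (r = 0.922), Vkorc1 and Timp2, and Frzb most like Lmo4 (0.852), Abi3bp and Paqr6. Sfrp2, after its overlapping antisense gene Gm26771 (0.910), was most like Arrdc3 (0.779) and Gpc3. Dkk2 was most like Icam2 (0.825), Tbx1 and Hoxb5, and Rspo1 most like Cacnb4 (0.808), Usp2 and S1pr3. Between members r was highest for Frzb with Dkk3 (0.783) and Sost with Wnt16 (0.758) and lowest for Sost with Sfrp1 (-0.703).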

How the data were processed

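Cells of the aortic root and ascending aorta were profiled with the 10x Genomics 3′ v3 chemistry. The authors deposited 1 matrix of UMI counts per feature and barcode, without normalization, aligned to mm10. Cell Ranger 6 is named in the submitters' processing notes, while the header of the matrix names another version. No column of another sample was left over. Barcodes were kept when they held between 1000 and 5000 genes and between 1500 and 25000 UMIs, with mitochondrial UMIs below 20%, the limits of the study's methods.

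Libraries were normalized with SCTransform and integrated in Seurat 5.3.0 (sctransform 0.4.2, R 4.3.3) over 3000 variable genes and 30 principal components, and clustered at a resolution of 0.25. Clusters were named from marker lists. Fibroblast-like and VSMC-like cells were clustered again at 0.4 after all listed Wnt genes were removed from the variable genes. UMIs were summed per class or subtype and library, and log2 ratios were taken after adding 0.5 UMI, weighted by the totals, to each sum. Medians of CPM and of ratios were taken separately. The call rule and the thinning were tested on simulated data. Doublet scores came from scrublet (scanpy 1.11.5), and the 5% of cells with the highest score in each library were marked. Intervals are exact Clopper-Pearson intervals and cover counting error only. Genes are from GENCODE M21 and promoters from RefSeq (GRCm38.p6). Alternatives varied the clustering, doublets, mitochondrial limit, summing, depth, prior and background, and left out each library.

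Named genes are the 10 members, the 2 genes of each Wnt list with the highest level in a class, Axin2 and Lef1, and the 3 genes most like each member (1 of these genes is not reported here), and others were named after their values were seen. The members and the lists were chosen with earlier results of these data known.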

Additional observations from a re-analysis of the deposited data

Results flagged for a closer look

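The 6 libraries were compared for 40 values: the CPM of each member in both classes and in its leading subtype, and its ratio between the classes. In 2 of them 1 library stood apart from the other 5 by more than the limit of Dixon's test (0.625 of the range), and chance gives about 1 in 20. Rspo1 in VSMC-like cells was at 5.30 CPM in library 6 and between 1.05 and 2.51 CPM in the others. The log2 ratio of Dkk2 between fibroblast-like and VSMC-like cells was 0.43 in library 1 and between 4.31 and 6.07 in the others, and in library 1 it rested on 1 UMI in each class.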

How the results depend on the processing

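No paired analysis was possible because no source used here ties a library to a mouse or its replicate number. Of 140 alternative values of the ratio between fibroblast-like and VSMC-like cells, 138 moved by less than the SD over libraries, and none of the 140 changed sign. Many of the 140 left out 1 library and could not move that far, because dropping 1 of 6 values always shifts their median by less than the SD. The 2 that moved came from subtracting the level of leukocyte-like cells: Sost went to -10.57, with nothing left in 3 of 6 fibroblast-like sums, and Sfrp1 to 4.33. The count of members called higher was 5 in fibroblast-like and 2 in VSMC-like cells under all 8 alternatives of processing, also without the doublet-rich subtypes, which was chosen after seeing the data, and leaving out library 2, 5 or 6 dropped Wif1 and gave 4 in fibroblast-like cells. Of 120 alternative values for the leading subtypes, 115 moved by less than that SD and none changed sign, although the leading subtype itself could be another one. Here too the values with 1 library left out could not move that far. The subtype was held fixed or picked anew as the highest, so the sign was nearly fixed in advance. It does not show that the leading subtype is stable. At a resolution 0.2 lower, Coch and Cilp2 cells formed 1 subtype, which led Wif1 (6.46), Frzb (1.83) and Dkk3, while Dkk2 (2.30) was led by a subtype with 29.4% Tfap2b cells, Wnt16 (0.40) by a VSMC-like subtype, and Sfrp1 (0.61) and Sfrp4 (1.33) by subtypes of which at most 0.155% of the cells were in the one reported. At a resolution 0.2 higher the ratio was 1.59 for Sfrp1, in a subtype of which 23.2% of the cells were in the one reported. Without thinning, the share of cells with a UMI was 85.4% for Sost, 20.8% for Wif1, 14.7% for Sfrp2 and 40.1% for Wnt16 in VSMC-like cells, and 53.4% for Sfrp1, 17.7% for Sfrp4, 32.7% for Frzb, 0.772% for Dkk2, 63.8% for Dkk3 and 2.63% for Rspo1 in fibroblast-like cells. Depth limits Dkk2 and Rspo1, with 235 and 597 UMIs in both classes.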
